A study of Macaca mulatta with 13 samples.

Results

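The cells described here were colon T cells of rhesus macaques (Macaca mulatta) that had acute graft-versus-host disease (GVHD), compared between the graft-derived (donor) and the host-derived fraction of a cell sort. A barcode counted as a T cell when the authors had kept it, when its unique molecular identifiers (UMIs, each marking 1 captured RNA molecule) of CD3D, CD3E and CD3G summed to at least 3 and exceeded those of the B-cell genes MS4A1 and CD79A, and when JCHAIN, a plasma-cell gene, held under 1% of its UMIs. The rule found 4359 T cells in 4 libraries, of 11526 such cells and 20606 kept barcodes in the whole series. The donor libraries 2 and 5 (labels 41 and 45) held 2125 and 557 of them, and the host libraries 1 and 6 (labels 40 and 43B) held 1643 and 34. The cells were thus chosen by their own UMIs of the CD3 genes, MS4A1, CD79A and JCHAIN, whose levels support nothing here. At the edge of the rule, 49, 1, 57 and 0 T cells of libraries 2, 5, 1 and 6 had exactly 3 CD3 UMIs, and 19, 0, 27 and 0 kept barcodes had exactly 2.

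Library numbers are the numbers at the end of the barcodes. The files do not pair them with labels, so number and label were matched by the order of the samples in the labels, which is an inference. Libraries 4 and 6 shared 5323 barcodes, whereas other pairs among libraries 1 to 7 shared between 6 and 55, and the labels 43 and 43B stand in the fourth and the sixth place. Library 4 was left out as a repeat of library 6, since 99% of its UMIs recurred there gene by gene, and library 7 (label 44) was left out with 3 T cells. Among the 4 libraries compared, 4 T-cell barcodes were shared. Every donor and host statement below rests on this inferred match.

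All 4 libraries came from transplanted animals, whose colon leukocytes were sorted as viable and CD45-positive and as negative for an intravascular CD45 label. Host and donor cells were parted by MAMU-A001, an MHC class I protein of macaques, on their surface in 2 of the 4 GVHD colon samples, per the labels' protocols. Kit versions v2 and v3 of the 10x droplet system were used, and the labels tie no library to a kit, an animal, an age or a conditioning treatment. Where nothing says that 2 libraries of a fraction came from separate animals, p-values measure only the spread between these libraries. T cells of libraries 2, 5, 1 and 6 held 9287854, 2451312, 6187846 and 101886 UMIs, with medians of 3577, 3720, 2878 and 2962 per cell. In library 6, 1 UMI equals 9.81 CPM, the unit in which all T-cell UMIs of a library are scaled to sum to 1000000, and the 3 UMIs taken here as the floor equal 29.4 CPM. Levels below are CPM, and a lower level in a summed library can come from fewer cells with the gene or less RNA per cell, which cannot be told apart from the sums alone. Library 6 thus gave weak evidence for any gene of low level, and each count led with below is also given without it. RNA of the sorting locus, MAMU-A, was 1674 and 1447 CPM in the donor libraries against 3443 and 1776 CPM in the host libraries, which is given as a description because the sort used its protein.

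In GVHD, T cells that arrive with the graft recognise tissues of the recipient as foreign, and the gut is one of the organs they damage. Some T cells of the recipient survive treatment as tissue-resident memory cells, which stay in the mucosa and carry CD69 and the integrins CD103 (ITGAE) and CD49a (ITGA1). Killer T cells store granzymes, which are proteases, together with the pore-forming perforin in granules that they release onto target cells.

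GZMA, the gene of granzyme A, was the only gene called higher in donor T cells by a test without pairs. Genes called lower in them were largely those of epithelial cells. The summed counts of each library were compared with edgeR's quasi-likelihood test over 8724 genes, with Benjamini-Hochberg adjusted p of at most 0.05 as the threshold. By that rule 1 gene was higher in donor T cells (0.0115% of genes tested) and 11 were lower (0.126%), while 369 had an unadjusted p under 0.05, 206 of them higher and 163 lower. Both donor libraries lay above both host libraries for 1789 genes (20.5%) and below both for 1111 (12.7%). Leaving out 1 library changed these counts widely, to 41 higher and 58 lower without library 2, to 87 and 270 without library 5, to 53 and 14 without library 1, and to 2 and 28 without library 6. With libraries 2 and 1 and libraries 5 and 6 taken as pairs, which the labels do not give, the counts called higher and lower were 53 and 90. In data simulated from these libraries the test found 5.97% of genes changed 2-fold, 64.2% of those changed 4-fold and 100% of those changed 8-fold. Smaller differences thus mostly could not be detected even there. The simulation took mean levels and library sizes from the data and changed only genes of higher level. It gave every gene the same spread, which was set in advance and not estimated from these libraries. Its shares thus need not hold for the real counts. GZMK and RRM2, with log2 fold changes of 3.55 and 3.93, were more than 8-fold higher and were not called without pairs.

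GZMA (ENSMMUG00000001597) stood at 3543 CPM in donor library 2 and 21260 CPM in donor library 5, against 376 CPM in host library 1 and 854 CPM in host library 6. The groups did not overlap, and the donor libraries also differed from each other several-fold. The log2 fold change was 4.70 (SE 0.82, n = 2 libraries against 2, edgeR adjusted p = 0.0188). The 854 CPM of library 6 were 87 UMIs, of which 1 cell held 46, and 8.82% of its 34 cells had any. The call was kept without each library in turn, at log2 fold changes of 2.57 to 5.49, and the direction was the same in each of 18 alternatives. It was lost with library totals in place of TMM factors (edgeR adjusted p = 0.558), over genes with 10 UMIs in every library (0.475), over all deposited barcodes (0.729), with library 43 added to 43B (0.267), without cells holding other-cell markers (0.13) and in thinned cells (0.154).

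Other granule genes were higher in both donor libraries without passing the test. GZMB, the gene of granzyme B, stood at 4826 and 21199 CPM in donor libraries 2 and 5 and at 1894 and 2414 CPM in host libraries 1 and 6 (log2 fold change 2.90, SE 0.69, edgeR adjusted p = 0.146). GZMK, a granzyme gene of memory-type CD8 cells, had 371 and 985 CPM against 56.1 and 88.3 CPM (log2 fold change 3.55, edgeR adjusted p = 0.114). PRF1, which encodes perforin, had 202 and 269 CPM against 39.6 and 19.6 CPM, the last of these being 2 UMIs. For all 3 genes the donor libraries lay above the host libraries. GZMB was called in 4 of 18 alternatives, GZMK in 4 of 17 and PRF1 in 3 of 17, with edgeR or DESeq2 adjusted p from 3.15e-08 to 0.807, 4.03e-06 to 0.772 and 0.00434 to 1.

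GNLY, whose product granulysin lyses cells and microbes, had 2814 and 4746 CPM in donor libraries and 1176 and 1649 CPM in host libraries. NKG7, a granule membrane gene, had 831 and 2479 CPM against 736 and 402 CPM, so that donor library 2 lay close to host library 1. CST7 and CTSW, a cystatin and a cathepsin gene of cytotoxic cells named here after their values were seen, had 273 and 667 CPM and 57.6 and 81.2 CPM in donor libraries, 86.1 and 5.49 CPM in host library 1 and no UMI in library 6. GZMM did not follow the fractions: it had 238 CPM in donor library 2 and 1.22 CPM in donor library 5, with 14.1 CPM in host library 1 and no UMI in library 6. Of 12 tested granule genes, 1 was called higher and none lower, and 8 were above the host libraries in both donor libraries (median log2 fold change 2.95, against 0.06 over all genes tested). Over all genes tested 20.5% were above. Without library 6 the number above was again 8 of 12, where the share over all genes was 32.4%.

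**Figure D1:**
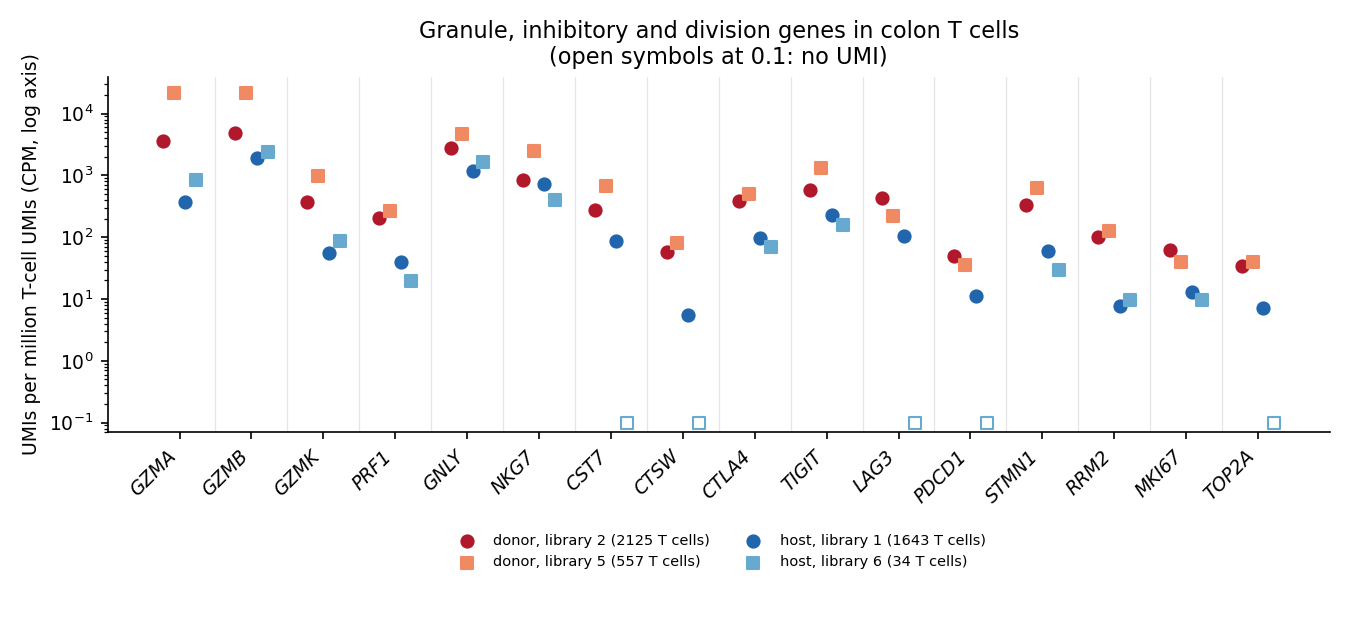
Levels of 16 genes in the summed T cells of each library, in CPM of T-cell UMIs on a log axis, with circles and squares for the libraries and open symbols for no UMI. GZMA, GZMB, GZMK and PRF1 were higher in both donor libraries (red) than in both host libraries (blue), and GZMA was the one of the 16 that passed the test.

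The share of cells with granule RNA differed as the levels did. GZMA was found in 46.4% of T cells of library 2 (exact 95% interval 44.3 to 48.6) and 74.3% of library 5 (70.5 to 77.9), against 15.3% of library 1 (13.6 to 17.2) and 8.82% of library 6 (1.86 to 23.7). The donor mean was 60.4% ± 19.7 (SD, n = 2) and the host mean 12.1% ± 4.61 (SD, n = 2). GZMK was found in 28.8% and 50.3% of donor T cells and in 4.2% and 2.94% of host T cells. PRF1 was found in 22.6% and 39.9% against 7.24% and 2.94%, and GZMB in 56.9% and 84.2% against 48.8% and 44.1%. An exact two-sided permutation test of 2 libraries against 2 cannot give a p below 0.333, so no share passed a test. Intervals cover counting error only.

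These shares were also computed with every T cell thinned to 1500 UMIs, which none of the 4359 cells fell short of, and the donor libraries stayed above the host libraries for GZMA, GZMB, GZMK, PRF1, GNLY and CCL5. Thinned GZMA was at 38.7% and 69.7% in donor libraries and at 9.43% and 8.82% in host libraries. As a measure of free RNA, GZMA was found in 15.9% of 107 B or plasma cells of library 2 and 25.7% of 70 of library 5 before thinning, and in 4.67% and 2.86% after it, while no such cell had GZMK after thinning. Libraries 1 and 6 had 15 and 6 B or plasma cells, none with GZMA, which allows shares of up to 21.8% and 45.9% (exact 95% bound) and so gives no background for host T cells. Their median UMI counts before thinning were 6652, 17433, 12709 and 5867 in libraries 2, 5, 1 and 6. Thinning therefore cut these cells more than the T cells, and the thinned shares do not measure the free RNA of T cells. Before thinning, GZMA shares in donor T cells were above those of B or plasma cells of the same library. After it the same comparison leaned towards the T cells in advance, so nothing is drawn from it. The part of free RNA in the T-cell shares was not tested.

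**Figure D2:**
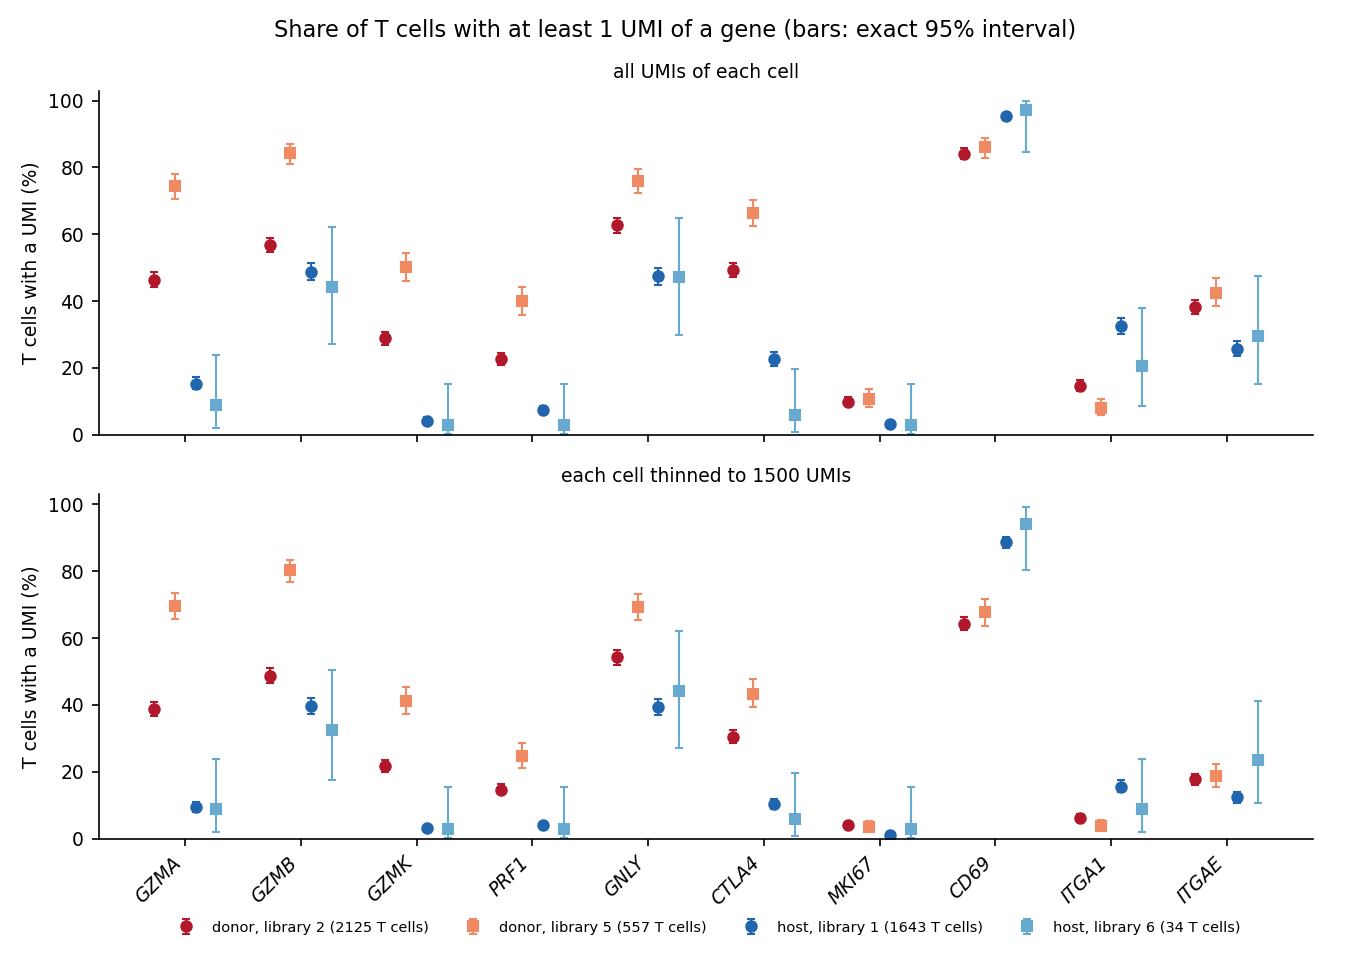
Share of T cells with at least 1 UMI of each of 10 genes, in percent, with exact 95% intervals, for all UMIs (top) and after thinning each cell to 1500 UMIs (bottom). Donor libraries (red) lay above host libraries (blue) for GZMA, GZMB, GZMK, PRF1, GNLY and CTLA4 and below them for CD69 and ITGA1 in both panels, whereas the ITGAE shares overlapped after thinning.

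Granzyme RNA was spread over cells of either coreceptor. A cell was put in the CD8 class when it had a UMI of CD8A or CD8B and none of CD4, and in the CD4 class in the opposite case. The CD8 class was 39% and 30.2% of donor T cells and 22.4% and 8.82% of host T cells, and the difference of 19 percentage points was 10.7 after thinning, when the libraries overlapped. CD8-class cells numbered 829, 168, 368 and 3 in libraries 2, 5, 1 and 6, and CD4-class cells 425, 100, 380 and 16, so no test was run within a class and library 6 is not described there. In the CD8 class GZMA was found in 64.2% and 93.5% of cells of donor libraries 2 and 5 and in 23.1% of host library 1. In the CD4 class it was found in 32.7% and 66%, against 16.1% in host library 1. GZMK in the CD8 class was found in 48.9% and 76.8% of donor cells and in 8.15% of cells of host library 1.

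GZMB in the CD4 class did not separate the fractions: it was found in 42.8% of cells of donor library 2, 81% of donor library 5 and 51.1% of host library 1. By level, CD8-class GZMA was 7314 and 33436 CPM in the donor libraries and 1207 CPM in host library 1, and CD4-class GZMA was 864 and 10988 CPM against 140 CPM. The granzyme levels of library 5 exceeded those of library 2 in each class. Between donor library 2 and host library 1, the larger library of each fraction, GZMA thus had the same direction within each class as over all T cells. Cells without a coreceptor UMI made up 32.7% to 49.8% of T cells, and their coreceptor cannot be told at this depth.

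Several inhibitory receptor genes had higher levels in both donor libraries, none of them past the test. CTLA4, which encodes a receptor that restrains activated T cells, had 386 and 494 CPM in donor libraries and 96.3 and 68.7 CPM in host libraries (log2 fold change 2.55, SE 0.71, edgeR adjusted p = 0.32). It was found in 49.4% and 66.4% of donor T cells and in 22.5% and 5.88% of host T cells. TIGIT, another inhibitory receptor gene, had 589 and 1304 CPM against 229 and 157 CPM. The groups did not overlap for either gene.

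LAG3 had 435 and 217 CPM in donor libraries and 106 CPM in host library 1, with no UMI in library 6. PDCD1, the gene of PD-1, had 50.3 and 35.1 CPM against 11 CPM and no UMI. IL10, a gene of an anti-inflammatory cytokine, had 33.1 and 89.7 CPM against 19.4 CPM and no UMI (PDCD1 and IL10 were named after their values were seen). Of 10 tested inhibitory genes 5 were above and 1 below the host libraries (median log2 fold change 0.74). Of 8 tested genes of the regulatory list, which shares CTLA4 and TIGIT with it, 4 were above and none below (median 2.11). Over all genes 20.5% were above and 12.7% below. Without library 6 the counts were 6 and 2 for the inhibitory list and 6 and 0 for the regulatory list, where 32.4% and 30.5% of all genes were above and below.

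Members of the regulatory list did not all behave alike. TNFRSF4 and TNFRSF18, which encode the costimulatory receptors OX40 and GITR, had 395 and 277 CPM in donor library 2 but 6.94 and 15.1 CPM in donor library 5. Host library 1 had 75.8 and 53.5 CPM of them, and library 6 had 9.81 CPM of TNFRSF4 and no UMI of TNFRSF18. These genes were thus low in libraries 5 and 6 and higher in libraries 2 and 1, across the fractions. FOXP3, the factor that defines regulatory T cells, was too low to test, at 1.83 and 2.45 CPM in donor libraries, 0.808 CPM in library 1 and no UMI in library 6.

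Genes of cell division were higher in donor T cells as a group, again without a call. STMN1, a microtubule regulator of dividing cells, had 329 and 624 CPM in donor libraries and 60.6 and 29.4 CPM in host libraries (log2 fold change 3.48, SE 0.79, edgeR adjusted p = 0.116). RRM2, a subunit of the enzyme that makes DNA precursors, had 102 and 125 CPM against 7.76 and 9.81 CPM (log2 fold change 3.93, edgeR adjusted p = 0.116). MKI67, the proliferation marker Ki-67, had 63 and 39.6 CPM against 12.9 and 9.81 CPM. RRM2 and TOP2A, the latter at 34.2 and 40 CPM against 7.11 CPM and no UMI, were named after their values were seen. In library 6 RRM2 and MKI67 rested on 1 UMI each.

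Of 18 tested division genes, all 18 had a positive log2 fold change, 15 were above the host libraries in both donor libraries and none was below (median 2.70, from 0.44 for PCNA to 4.26 for CCNB2). Over all 8724 genes tested, 4688 had a positive log2 fold change, 20.5% were above and 12.7% were below. Without library 6, 17 of 18 were above, where 32.4% of all genes were. At least 2 of 10 division genes were found in 9.6% of T cells of library 2 (exact 95% interval 8.38 to 10.9) and 12.2% of library 5 (9.61 to 15.2), against 1.34% of library 1 (0.841 to 2.02) and 1 of 34 cells of library 6 (2.94%). After thinning the shares were 5.32% and 6.64% in donor libraries and 0.548% and 0% in host libraries, and the 0 of 34 cells has an upper exact bound of 10.3%. This measure was chosen after the values of the list were seen.

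**Figure D3:**
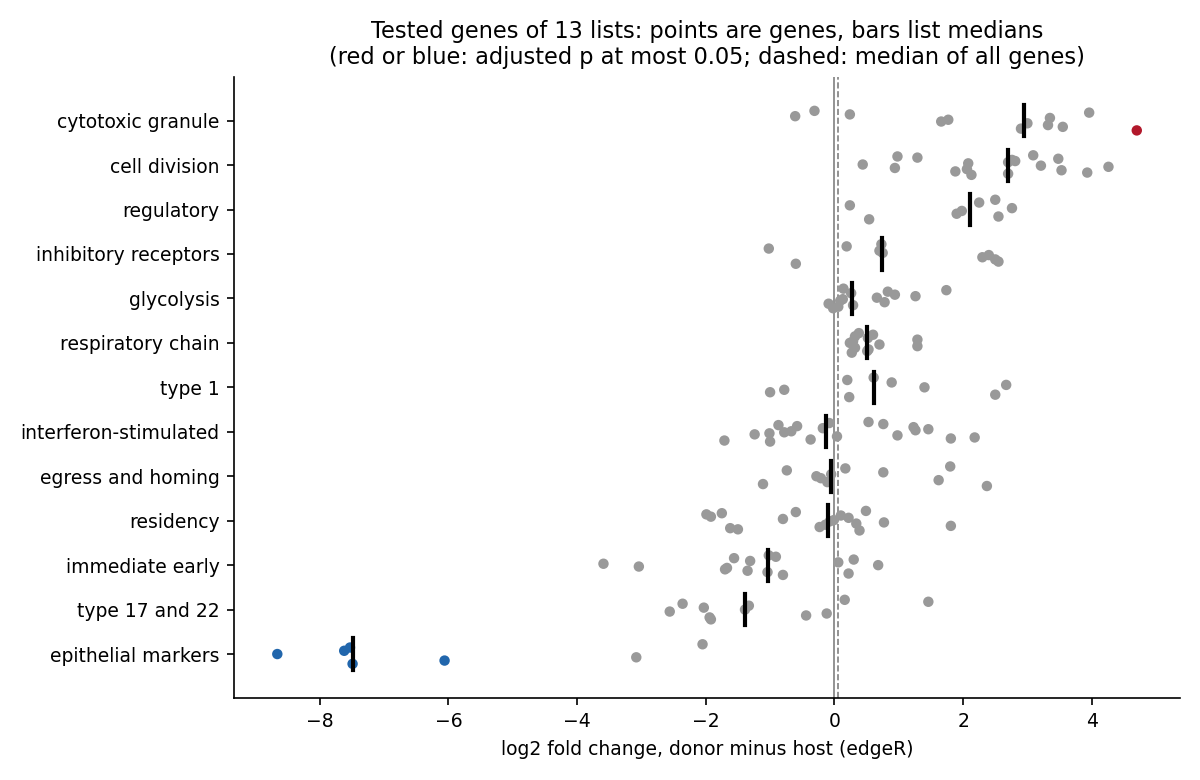
Log2 fold changes, donor minus host, of the tested genes of 13 lists, with a point for each gene and a black bar at each list's median. Granule genes had a median of 2.95, division genes 2.70, type 17 and 22 genes -1.39 and epithelial markers -7.49, against 0.06 over all genes (dashed line), and the coloured points are the list members past the test.

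Genes of tissue residence had no common direction. CD69, which keeps T cells in tissue by holding the exit receptor S1PR1 inside the cell, had 976 and 1196 CPM in donor libraries and 2618 and 5231 CPM in host libraries (log2 fold change -1.62, SE 0.60, edgeR adjusted p = 0.717). It was found in 64.3% and 67.7% of donor T cells and 88.7% and 94.1% of host T cells after thinning. ITGA1 had 43.8 and 20.8 CPM against 116 and 68.7 CPM. ITGAE did not differ in a like way: it had 125 and 135 CPM in donor libraries and 93.1 and 137 CPM in host libraries, which overlap (log2 fold change 0.39, SE 0.70).

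RGS1, a brake on chemokine signalling in resident cells, also overlapped, at 1274 and 1611 CPM in donor libraries and 1110 and 2915 CPM in host libraries. IL7R, the receptor gene for the survival cytokine interleukin 7, had 260 and 57.9 CPM against 604 and 697 CPM. KLRB1, the gene of CD161, had 91.2 and 136 CPM against 400 and 491 CPM. Both genes were lower in each donor library than in each host library, without passing the test (edgeR adjusted p = 0.693 for IL7R and 0.803 for KLRB1). Of 18 tested residency genes 3 were above and 6 below the host libraries (median log2 fold change -0.10), where 20.5% and 12.7% of all genes were. Without library 6 these counts were 6 and 8, where 32.4% and 30.5% of all genes were, so the share above was near that of all genes.

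Within the classes IL7R and KLRB1 showed the same order. KLRB1 was found in 6.12% and 17% of CD4-class cells of donor libraries 2 and 5 and in 58.7% of those of host library 1. In the CD8 class it was found in 17.6% and 17.9% of donor cells and 34.5% of cells of host library 1. IL7R was found in 43.3% and 4.76% of CD8-class cells of libraries 2 and 5 and in 68.2% of those of library 1.

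Genes of exit and lymph node homing gave no common direction. S1PR1, the exit receptor gene, had 23.9 CPM in donor library 2, while donor library 5 at 3.26 CPM lay close to host library 1 at 2.75 CPM. CCR7, the lymph node homing receptor gene, had 109 and 91.4 CPM against 128 and 108 CPM, LEF1 had 31.9 and 6.12 CPM against 15.8 and 39.3 CPM, and both overlapped. KLF2 and TCF7, factors of recirculating cells, were at most 2.8 and 3.72 CPM in libraries 2, 5 and 1, and library 6 had no UMI of either, which its floor of 29.4 CPM leaves uninformative. Of 11 tested genes of this list 3 were above and 2 below (median log2 fold change -0.05), where 20.5% and 12.7% of all genes were. Without library 6 these counts were 3 and 5, where 32.4% and 30.5% of all genes were.

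Helper genes of type 17 and 22 cells, which guard the gut barrier, were mostly lower in donor T cells, with no call. CCR6, a homing receptor gene of such cells, had 26.4 and 10.2 CPM in donor libraries and 65.3 and 88.3 CPM in host libraries. AHR, a sensor of dietary and microbial ligands, had 18 and 11.8 CPM against 73.9 and 39.3 CPM. IL22, the gene of a cytokine that protects epithelium, had 5.92 and 3.26 CPM against 29.1 and 29.4 CPM, the last being 3 UMIs (log2 fold change -2.56, edgeR adjusted p = 0.533). All of these were below the host libraries in both donor libraries.

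IL23R, a receptor gene of this lineage, had 6.78 and 4.49 CPM against 23.4 and 49.1 CPM (IL22 and IL23R were named after their values were seen). MAF was the exception among genes that did not overlap, at 38.3 and 40 CPM in donor libraries and 17.1 and 9.81 CPM in host libraries. RORA had 77.4 and 13.1 CPM in donor libraries and 167 and 39.3 CPM in host libraries. CCL20 had 67.1 and 150 CPM against 214 and 118 CPM, and both of these genes overlapped. Of 11 tested genes 6 were below and 1 above (median log2 fold change -1.39), where 12.7% and 20.5% of all genes were. Without library 6 these counts were 8 and 1, where 30.5% and 32.4% of all genes were. IFNG, the cytokine gene of type 1 cells, overlapped at 80.8 and 192 CPM against 144 and 128 CPM. EOMES, a factor of cytotoxic cells, had 11.2 and 4.49 CPM in donor libraries, 1.45 CPM in library 1 and no UMI in library 6.

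Immediate early genes, which cells switch on within minutes of a stimulus or of handling, were below the host libraries or overlapped with them. ATF3, a stress-response factor named after its values were seen, had 17.4 and 3.67 CPM in donor libraries and 152 and 108 CPM in host libraries (log2 fold change -3.59, SE 0.85, edgeR adjusted p = 0.146). It was found in 4.94% and 2% of CD4-class cells of libraries 2 and 5 and in 43.4% of those of library 1. FOS had 818 and 591 CPM against 1576 and 1619 CPM, and TNFAIP3, a brake on NF-kB, had 488 and 281 CPM against 833 and 716 CPM. NFKBIA had 1220 and 159 CPM against 3206 and 658 CPM. JUN had 492 and 49 CPM against 1346 and 304 CPM, and it overlapped, as did NFKBIA. Of 15 tested genes 7 were below and none above (median log2 fold change -1.04), where 12.7% and 20.5% of all genes were. Without library 6 these counts were 11 and 1, where 30.5% and 32.4% of all genes were. The part of cell handling in these values was not tested.

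**Figure D4:**
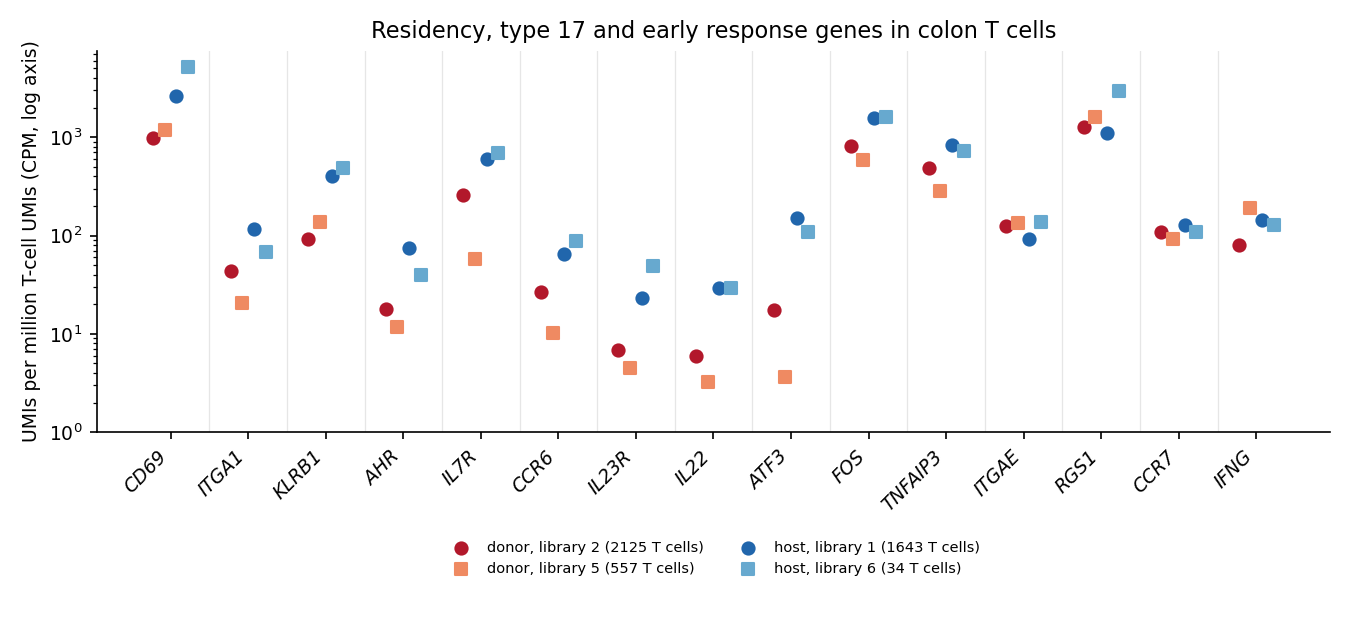
Levels of 15 genes in the summed T cells of each library, in CPM of T-cell UMIs on a log axis. CD69, ITGA1, KLRB1, AHR, IL7R, CCR6, IL23R, IL22, ATF3, FOS and TNFAIP3 were lower in both donor libraries (red) than in both host libraries (blue), while ITGAE, RGS1, CCR7 and IFNG overlapped, and none of the 15 passed the test.

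Antigen-presentation, interferon and metabolic genes gave no call. B2M, the light chain of MHC class I, had 24301 and 29867 CPM in donor libraries and 36601 and 40251 CPM in host libraries. HLA-DRA had 39.9 and 40.8 CPM in donor libraries, 236 CPM in host library 1 and no UMI in library 6. Of 7 tested MHC class I genes 3 were above and 3 below (median log2 fold change 0.39), also without library 6. Of 3 tested MHC class II genes 1 was below and none above (median -1.02), and all 3 were below without library 6. Myeloid marker genes, described below, summed to 4134 CPM in T cells of host library 1 and 6.57 CPM in those of donor library 2. Without cells holding other-cell markers the log2 fold changes of HLA-DRA and CD74 were positive, as the closing section gives. The part of myeloid RNA in the MHC class II values was not tested. Of 20 tested interferon-stimulated genes 5 were above and 5 below (median -0.13), among them ISG20 at 523 and 547 CPM against 213 and 19.6 CPM, and without library 6 these counts were 7 and 9. LDHA, which makes lactate, had 589 and 1472 CPM against 387 and 344 CPM, and of 14 tested glycolysis genes 4 were above and none below (median 0.28), or 6 and 1 without library 6. Of 13 tested respiratory chain genes 6 were above and none below (median 0.51), and without library 6 this count was 12 of 13. Over all genes 20.5% were above and 12.7% below, and 32.4% and 30.5% without library 6.

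Of the 11 genes called lower in donor T cells, 9 carry a symbol, and 5 of these were on the list of epithelial markers. FABP1 (ENSMMUG00000042446), the fatty-acid carrier of enterocytes, had 1.08 and 1.22 CPM in donor libraries and 158 and 942 CPM in host libraries (log2 fold change -8.66, SE 1.08, edgeR adjusted p = 0.00169). EPCAM, an adhesion molecule of epithelium, had 0.215 CPM and no UMI against 17.9 and 68.7 CPM. KRT18, a keratin gene, had 1.29 and 0.408 CPM against 50.7 and 98.1 CPM. PIGR, which carries antibody across epithelium, and LGALS4, a gut galectin, were called lower too, with log2 fold changes of -7.62 and -7.53.

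PLA2G2A, AGR2, GUCA2A and ELF3, which are known from Paneth or goblet cells and other gut epithelium, were called lower with log2 fold changes of -8.40, -8.95, -7.23 and -5.39. All 7 tested epithelial markers were below the host libraries in both donor libraries (median -7.49), where 12.7% of all genes were. Without library 6 all 7 were again below, where 30.5% of all genes were. FABP1 was found in 0.471% and 0.539% of T cells of donor libraries 2 and 5, with 1 UMI at most per cell, and in 19.7% and 67.6% of T cells of host libraries 1 and 6, with medians of 1 and 2 UMIs in the cells that had it. The FABP1 call was kept without each library in turn (log2 fold changes -9.43 to -7.08) and lost with library totals (edgeR adjusted p = 0.334) and over all deposited barcodes. No gene was called lower under those last settings, and 2 were in thinned cells. Of the 9 named genes, ELF3 lost its call without library 6.

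The RNA of epithelial cells was also high outside the kept T cells of the host libraries. Epithelial markers summed to 45.9 and 12.6 CPM in T cells of donor libraries 2 and 5 and to 468 and 1718 CPM in those of host libraries 1 and 6. In the barcodes that the authors did not keep, the same sum was 630, 871, 7211 and 19707 CPM, and in the other kept cells it was 42.5, 13.4, 4138 and 5170 CPM. The order of the fractions was thus the same in T cells, other kept cells and barcodes not kept, and their part in the calls was not tested. GZMA in barcodes not kept was at 1517 and 4109 CPM in the donor libraries and 72.1 and 10.4 CPM in the host libraries. That order was opposite to the order of the epithelial markers and the same as that of GZMA in T cells. Barcodes not kept numbered 682, 428, 3069 and 5457 in libraries 2, 5, 1 and 6 and were not free of T cells. Without the authors' filter the T-cell rule found 2457, 759, 2733 and 281 barcodes in these libraries. Among kept barcodes it found 2125, 557, 1643 and 34. GZMA of barcodes not kept thus included RNA of T cells. The part of RNA from outside the kept T cells in the GZMA call was not tested either.

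RNA of myeloid cells marked single libraries and not a fraction. Myeloid markers summed to 6.57 CPM in T cells of donor library 2 and 1876 CPM in donor library 5, and to 4134 CPM in host library 1, with no UMI of the 11 genes in library 6. S100A8, an alarm gene of neutrophils and monocytes, made up much of it, with 1050 CPM in library 5 and 1836 CPM in library 1. It was found in 8.26% and 4.14% of T cells of these libraries and in 0.0471% and 0% of those of libraries 2 and 6. Without the cells that had a UMI of chosen epithelial, stromal or myeloid genes, 2097, 494, 1260 and 26 T cells were left in libraries 2, 5, 1 and 6, and GZMA had a log2 fold change of 4.45.

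**Figure D5:**
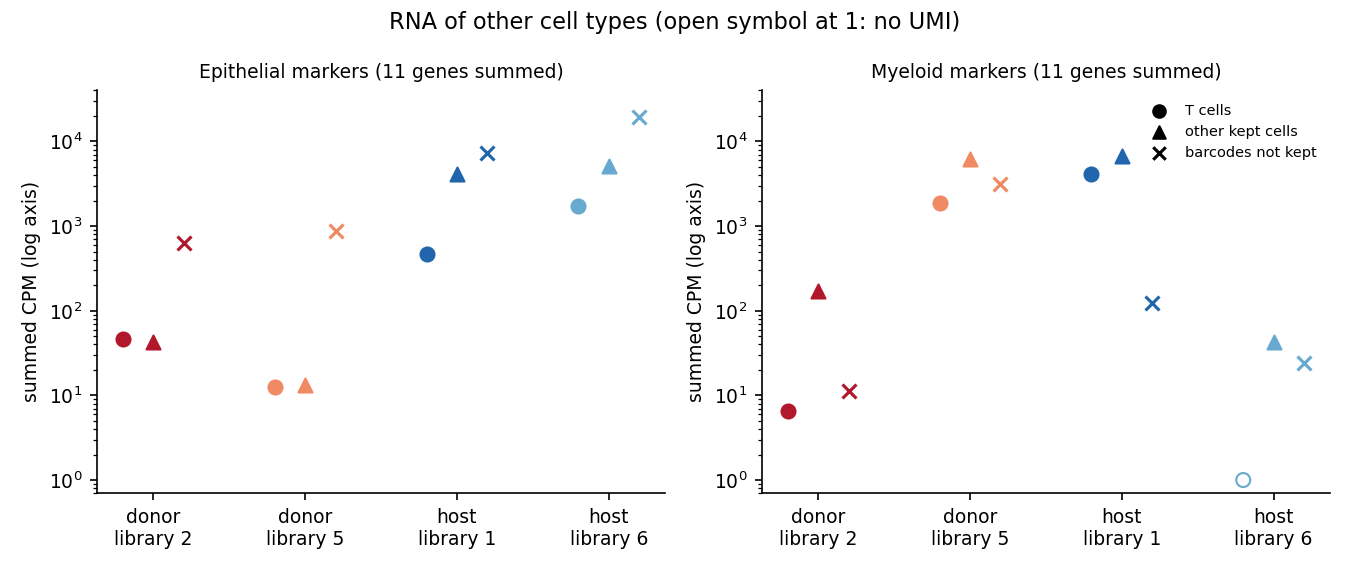
Summed CPM of 11 epithelial (left) and 11 myeloid (right) marker genes on a log axis, in T cells, other kept cells and barcodes not kept of each library. Some barcodes not kept also met the CD3, B-cell and JCHAIN limits of the T-cell rule. Epithelial RNA was higher in the host libraries in all 3 kinds of barcodes, up to 19707 CPM. Myeloid RNA in T cells was high in donor library 5 and host library 1, whereas the T cells of host library 6 had no UMI of the myeloid markers.

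Levels in T cells of the other libraries of the series, taken by the same rule, place these values. In the 4 healthy libraries GZMA ranged from 31.5 to 412 CPM (median 229) and in the 3 libraries of combined host and donor GVHD cells from 1326 to 3291 CPM. GZMB was between 233 and 671 CPM in healthy libraries, below all 4 GVHD libraries described here. CTLA4 was between 140 and 330 CPM in healthy libraries, above both host libraries and below both donor libraries. CD69 was between 3464 and 5361 CPM in healthy libraries, above the donor libraries and host library 1. ATF3 was between 6.62 and 235 CPM in healthy libraries, AHR between 11.4 and 169 CPM and CCR6 between 25.3 and 57.6 CPM. Healthy library 3 had the lowest level of each, near the donor levels, and the healthy medians were 166, 108 and 51.4 CPM. These libraries use another set of barcodes except healthy library 3, so the values are given as levels with no test.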

How the data were processed

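The authors deposited raw UMI counts per gene and barcode, for which the file header and, per the submitters' processing notes, the labels name Cell Ranger 3.1.0. The notes also list Seurat 3.1, with no role. Neither source names a genome build or an annotation. Kept barcodes are those of the authors' normalized matrix, whose values were not used. Raw counts of T cells were summed per library and compared with edgeR 4.0.16 (TMM factors, filterByExpr, quasi-likelihood test, Benjamini-Hochberg) on 2 donor and 2 host libraries, after the script was tested on simulated data. DESeq2 1.42.0 and the other alternatives are in the closing section. CPM divides by all UMIs of the same T cells. No doublets were removed. Cells were thinned with a fixed seed. Of 34628 genes, 23811 carry a symbol in the file and 695 took one from a name table. The 30 gene lists matched 324 of 367 names. Named genes are 28 listed genes, called genes (at most 12 per direction), called list members and the 4 highest uncalled members of each list, and any other is said to be named after its values were seen. The members, lists and tests were chosen with earlier results of these data known. Some genes of the lists are not reported here.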

Additional observations from a re-analysis of the deposited data

How the results depend on the processing

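Library 6, with 34 T cells, and the spread between 2 libraries per fraction limit every comparison. The counts called higher and lower, 1 and 11, moved with most settings. They were 4 and 20 with DESeq2, 13 and 38 with upper quartile factors, 0 and 0 with library totals (314 genes at an unadjusted p under 0.05), 24 and 77 without a filter, 0 and 0 over genes of 10 UMIs in every library (91 at an unadjusted p under 0.05), and 0 and 0 over all deposited barcodes (407). They were 0 and 4 with library 43 added to 43B, which counts molecules again, 0 and 2 without cells holding other-cell markers (295), and 0 and 2 in thinned cells (154). Without immunoglobulin and other-cell genes 3 were lower. Leaving out 1 library gave 2 to 87 higher and 14 to 270 lower. With the pairs 41/40 and 45/43B as a replicate block they were 53 and 90. The labels do not give these pairs. Deviations of libraries 2 and 1 from their fractions' means correlated at 0.36 over 8724 genes, which with 2 pairs is a hint from the data only.

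The difference in the CD8-class share was 10.7 percentage points in thinned cells. Among 56 genes and 953 pairs of gene and alternative, 22 reversed, all of genes not called. Values without 1 library in turn ranged from -0.29 to 0.15 for CCR7, -0.49 to 0.44 for CD74, -3.01 to 11.83 for GZMM, -2.47 to 10.42 for HLA-DRA, -0.79 to 0.81 for IFNG, -1.50 to 0.51 for LEF1 and -0.72 to 0.48 for RGS1. CCR7 was 0.11 without cells holding other-cell markers. CD74 was 0.44 there, 0.28 over all deposited barcodes and 0.41 in thinned cells. HLA-DRA was 1.24 without cells holding other-cell markers. IFNG was -0.01 with totals, -0.14 over genes of 10 UMIs, -0.04 with the replicate block and -0.03 in thinned cells. LEF1 was 0.02 with the replicate block, 0.32 over all deposited barcodes and 0.28 without cells holding other-cell markers. TCF7 was 0.04 over all deposited barcodes. The cause was not tested.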

Other observations

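Some genes outside the lists also lay above both host libraries in donor T cells, and they were picked after their values were seen, with no test to rely on. IL4, the gene of the defining cytokine of type 2 helper cells, had 199 UMIs in 61 cells of donor library 2 and 31 UMIs in 15 cells of donor library 5 (21.4 and 12.6 CPM). Host library 1 had 1 UMI of it and library 6 none (log2 fold change 6.55, edgeR adjusted p = 0.0985). IL1RL1, the receptor gene for the alarm cytokine interleukin 33, had 19.8 and 13.1 CPM in donor libraries against 1.62 CPM and no UMI. CCR3, an eotaxin receptor gene, had 8.51 and 10.6 CPM against 0.323 CPM and no UMI. HRH2, a histamine receptor gene, had 13.1 and 3.26 CPM against 0.162 CPM and no UMI, and HPGDS, a prostaglandin synthase gene, had 2.15 and 2.86 CPM against 0.808 CPM and no UMI. IL5 had 1, 0, 3 and 0 UMIs and IL13 had 6, 1, 2 and 0 UMIs in libraries 2, 5, 1 and 6, too few to read an order from. GATA3, the factor of these cells, overlapped at 198 and 52.6 CPM against 79.2 and 177 CPM. IL17RB and CCR4, looked up with them, also overlapped. IL17RB had 3.01 and 0.816 CPM in donor libraries against 2.26 and 9.81 CPM. CCR4 had 1.29 and 0.408 CPM against 0.808 CPM and no UMI. IL9 had 2, 0, 1 and 0 UMIs and IL31 had 4, 0, 0 and 0 UMIs in libraries 2, 5, 1 and 6. PTGDR2 had 1 UMI, in library 2, and CCR8 had none in any of them. Genes of this type thus did not all follow the fractions. The IL4 UMIs lay in 4.71% and 4% of CD4-class cells of libraries 2 and 5 and in 1.45% and 0.595% of CD8-class cells.

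PCLAF, a partner of the replication clamp, had 89.6 and 145 CPM in donor libraries, 5.98 CPM in host library 1 and no UMI in library 6. CGA, annotated as the shared alpha subunit of glycoprotein hormones, had 646 and 1088 CPM against 115 and 9.81 CPM. CXCL3, a neutrophil-attracting chemokine gene, had 382 CPM in host library 1, no UMI in donor library 2 and 5.71 CPM in donor library 5. Host library 6 had 9.81 CPM of it, which is 1 UMI, so its level marked library 1 and not the host fraction. T cells of library 1 also had the highest sum of myeloid markers (4134 CPM). The part of myeloid RNA in the CXCL3 level was not tested.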
